A study of Mus musculus with 15 samples.

Results

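The 10 core genes of the mammalian circadian clock were followed in mouse posterior eyecups: the activators Arntl, Clock and Npas2, the repressors Per1, Per2, Per3, Cry1 and Cry2, and the loop and output genes Nr1d1 and Dbp. They were chosen by name, and all 10 were found among the 55421 genes listed for every library. RNA was sequenced from 15 mice of C57BL/6J background aged 2.5 months, of which 4 were wild type (WT), 6 carried 1 copy of the FUN025 mutation of Tmem135 (FUN025/+) and 5 carried 2 copies (FUN025/FUN025). Each library came from the eyecups of 1 mouse, from which the neural retina had been removed. Mice of both sexes were used, with no label for the sex of the single mouse. By the study's supplement, males were 2 of 4 WT, 4 of 6 FUN025/+ and 2 of 5 FUN025/FUN025 mice. The labels place every dissection between 11 and 1 PM, without a time for the single mouse, and the light schedule is not given in the sources used here. The mutation is carried by all cells of the animal, and Tmem135 encodes a membrane protein of peroxisomes and mitochondria.

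In the clock, ARNTL (also called BMAL1) pairs with CLOCK or NPAS2 and switches on genes that carry an E-box, among them the Per, Cry, Nr1d1 and Dbp genes. PER and CRY proteins return to the nucleus and repress that pair, which closes the loop over about a day. NR1D1 (REV-ERBα) represses Arntl while ROR proteins activate it, and DBP, TEF and HLF drive genes with a D-box, so that Arntl and the genes of the repressor arm peak at different times of day. In the eye the clock runs in the retina and the pigment epithelium and times the daily shedding and uptake of photoreceptor tips. Samples taken in a single window of the day show levels at that phase, and a change in phase cannot be told apart from a change in level at the same phase.

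Total counts were 18094977 to 20029919 in WT libraries, 10903183 to 13456349 in FUN025/+ libraries and 11053535 to 15038383 in FUN025/FUN025 libraries, so every WT library was deeper than every mutant one. No batch is labelled, and a batch shared by WT libraries only cannot be told apart from genotype. Levels are given as CPM, in which each gene's counts are divided by the library's total after scaling for composition. Tmem135 was at 59.8 to 66.2 CPM in WT, 66.1 to 86.3 in FUN025/+ and 82.5 to 94.0 in FUN025/FUN025 mice. The 7 markers of pigment epithelium, which the labelled tissue should contain, summed to 16067.6 to 21582.4 CPM over the 15 mice. Of these, edgeR called none in any comparison, with 0, 1 and 5 at an unadjusted p under 0.05 (FUN025/+ and FUN025/FUN025 against WT, and between the mutants). Of all 18979 genes tested, 5473, 5431 and 1183 were at that level. Between the mutants 6 of the 7 markers had a negative sign, with a median log2 fold change of −0.19.

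Between genotypes, 3 of the 10 clock genes changed. Arntl was lower and Per3 was higher in both mutant genotypes than in WT, and Nr1d1 was lower in FUN025/FUN025 mice. Genes were called at an adjusted p under 0.05 from edgeR's quasi-likelihood test, fitted over 18979 genes that passed the filters on variance and low counts, among them all 10 clock genes. Between FUN025/+ and WT mice 2 of 10 clock genes were called, where 13.7% of all tested genes were, and of these 1 was higher (7.09% of all genes) and 1 lower (6.61%). Between FUN025/FUN025 and WT mice 3 of 10 were called against 14.0% of all genes, 1 of them higher (7.03%) and 2 lower (7.02%). The values of the groups did not overlap for 2 of the 10, Arntl and Per3, in either comparison, against 10.9% of all genes for FUN025/+ and 14.8% for FUN025/FUN025. The median log2 fold change of the 10 genes was 0.03 in FUN025/+ and 0.10 in FUN025/FUN025 mice, beside −0.0023 and −0.0071 over all genes. Both comparisons use the same 4 WT mice, so they are not separate pieces of evidence. Between the mutant genotypes none of the 10 was called, with DESeq2 and limma-voom also at 0 and 0 at an unadjusted p under 0.05, and 0.522% of all genes were called. With 10 genes a single call moves the share by 10 percentage points, so the counts single out Arntl, Per3 and Nr1d1 and say nothing of the clock genes as a group.

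**Figure D1:**
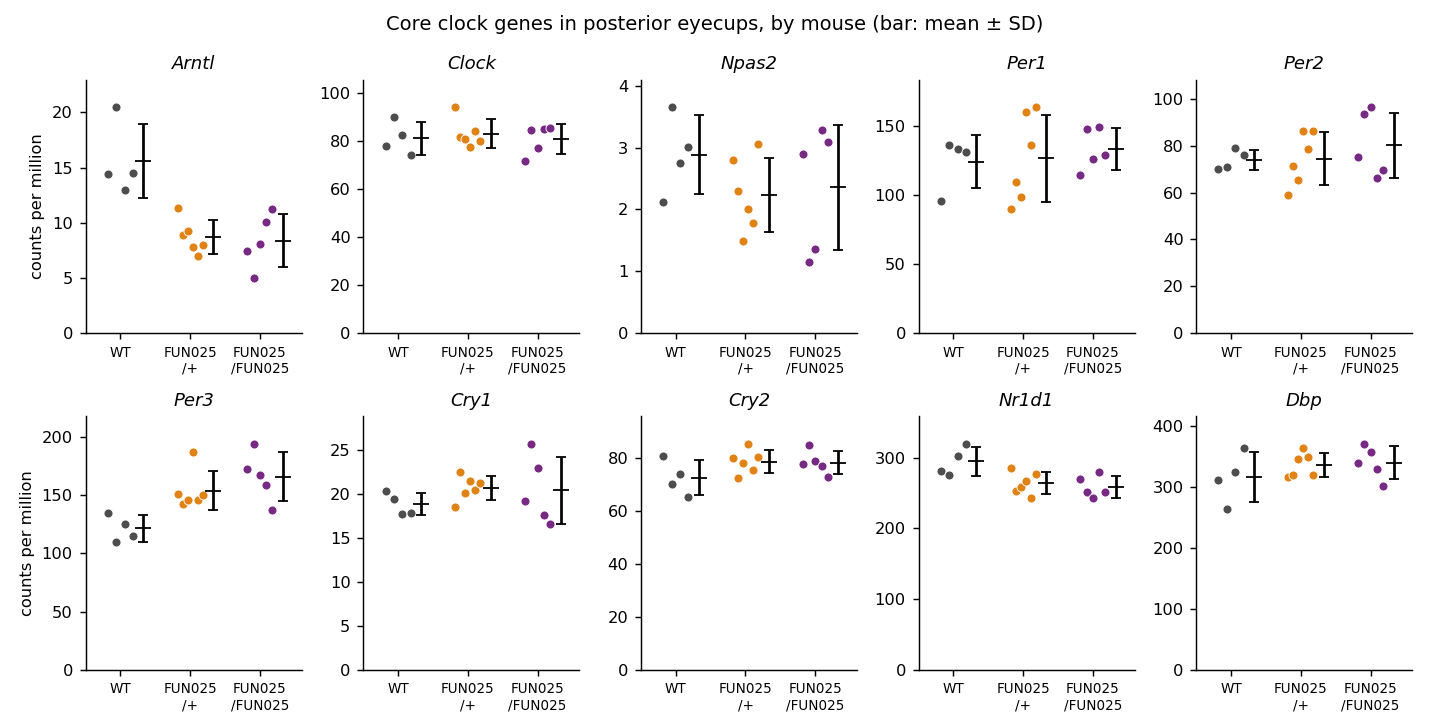
Level of each of the 10 clock genes in CPM (y axis, from 0) for every mouse (points) of WT, FUN025/+ and FUN025/FUN025 genotype, with the mean and SD beside the points. All 4 WT mice lie above all 11 mutant mice for Arntl and below them for Per3, while the points of the other 8 genes overlap.

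Arntl encodes the activator that every form of the loop requires. It was at 14.4, 20.5, 12.9 and 14.5 CPM in the 4 WT mice. In FUN025/+ mice the lowest, median and highest levels were 6.96, 8.42 and 11.3 CPM, and the 5 FUN025/FUN025 mice were at 7.42, 5.004, 8.11, 10.03 and 11.3 CPM. The lowest WT mouse was thus above the highest mutant mouse, and WT replicate 2 stood highest of all. The same library had the highest sum of photoreceptor markers, at 2625 CPM against 369 to 869 in the other WT mice, and of glucocorticoid targets, at 1938 CPM. The mean fell from 15.6 ± 3.35 CPM (SD, n = 4) to 8.70 ± 1.52 (n = 6) and 8.36 ± 2.42 (n = 5). The log2 fold change was −0.84 ± 0.18 (SE) in FUN025/+ mice (adjusted p = 0.00673, edgeR's quasi-likelihood test) and −0.90 ± 0.19 in FUN025/FUN025 mice (adjusted p = 0.00549), or 1.78-fold and 1.87-fold lower. Between the mutant genotypes it was −0.07, with a 95% interval of −0.46 to 0.32. The gene was read at 65 counts in the poorest library and 381 in the richest, so counting error is part of the spread. Without WT replicate 2, its highest library, the change was −0.67 in FUN025/+ and −0.73 in FUN025/FUN025 mice and stayed called in both.

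Promoters were searched for 4 clock motifs on both strands, in the window from 250 bases before to 50 after the start. The RefSeq windows on GRCm38.p6 hold 9 of the 10 genes, with none for Per2, and sites outside the windows were not searched. The ROR element core TAGGTCA, which REV-ERB and ROR proteins bind, lies in 2.61% of the 32817 windows of all genes. Among the clock genes with a window it lies in that of Arntl alone, 31 bases after a start. It is printed because Arntl had the lowest log2 fold change of the 10 clock genes, in capitals within 30 bases of chr7:113207530-113207559, plus strand:
Arntl: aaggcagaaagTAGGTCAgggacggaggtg

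Clock and Npas2 encode the partners of ARNTL, and neither was called. Clock was at 78.1, 90.0, 82.6 and 74.3 CPM in WT mice, at 77.5, 81.4 and 94.4 (lowest, median, highest) in FUN025/+ mice and at 71.7, 84.8, 77.4, 85.1 and 85.7 in FUN025/FUN025 mice. Its groups overlapped over nearly their whole range, and the log2 fold change was 0.04 in FUN025/+ (95% interval −0.10 to 0.17) and −0.01 in FUN025/FUN025 mice (−0.15 to 0.14). Npas2 was the scarcest of the 10 clock genes, at 2.11, 3.66, 2.75 and 3.003 CPM in WT mice, 1.497, 2.15 and 3.05 in FUN025/+ mice and 2.89, 1.15, 1.37, 3.29 and 3.09 in FUN025/FUN025 mice. With 15 to 68 counts a library, its log2 fold changes of −0.36 (−0.93 to 0.21) and −0.29 (−0.89 to 0.30) could not be told from 0 at this depth. The 5 FUN025/FUN025 mice fell into a pair near 1 CPM and 3 mice near 3 CPM.

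Per3 encodes the third PER protein, which binds CRY but is less needed for rhythm than its relatives. It was at 135, 110, 126 and 115 CPM in the WT mice. FUN025/+ mice ran from 142 through a median of 148 to 187 CPM, and FUN025/FUN025 mice were at 172, 194, 167, 159 and 137 CPM. Every mutant mouse was above every WT mouse, but the lowest FUN025/FUN025 mouse was close to the highest WT mouse. The means were 121 ± 11.2 CPM in WT, 154 ± 16.7 in FUN025/+ and 166 ± 20.9 in FUN025/FUN025 mice. The log2 fold change was 0.34 ± 0.09 in FUN025/+ (adjusted p = 0.0231, edgeR's quasi-likelihood test) and 0.45 ± 0.10 in FUN025/FUN025 mice (adjusted p = 0.00544), and 0.11 (−0.07 to 0.29) between the mutants. The FUN025/+ call was lost without WT replicate 2 (0.30, adjusted p = 0.0703 in edgeR) or WT replicate 4 (0.32, adjusted p = 0.0828). It was also lost with the muscle level (0.32, adjusted p = 0.136 in edgeR) or the glucocorticoid level (0.35, adjusted p = 0.148) as a covariate, and the latter also ended the call in FUN025/FUN025 mice (0.46, adjusted p = 0.058). The fold changes were about as large in these fits as without the covariates.

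The Per3 promoter carries a pair of D-boxes in the form TTATGTAA, the site of DBP, TEF, HLF and their repressor NFIL3, 205 and 158 bases before its start. This form lies in 0.935% of all windows, the form TTACGTAA in 0.119%, and no other clock gene with a window holds either. Both stretches, on the minus strand at chr4:151044852-151044881 and chr4:151044805-151044834, are shown with the D-box in capitals:
Per3, outer site: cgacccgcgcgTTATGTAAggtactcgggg
Per3, inner site: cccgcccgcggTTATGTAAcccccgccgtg

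Per1 and Per2, the PER proteins on which the loop depends, were not called, and their levels varied widely within a genotype. Per1 was at 95.4, 136, 133 and 131 CPM in WT mice, at 90.0, 123 and 164 (lowest, median, highest) in FUN025/+ mice and at 114, 148, 126, 150 and 129 in FUN025/FUN025 mice. WT replicate 1 stood apart below the other 3 WT mice, and 3 of the 6 FUN025/+ mice were at or below 110 CPM while the other 3 were at or above 136 CPM. The log2 fold changes of Per1 were 0.03 (−0.35 to 0.40) and 0.10 (−0.29 to 0.49). Per2 was at 70.1, 71.0, 79.0 and 76.3 CPM in WT mice, at 59.1, 75.0 and 86.6 in FUN025/+ mice and at 75.1, 93.7, 96.7, 66.5 and 69.5 in FUN025/FUN025 mice. The WT mice lay close together inside the range of each mutant genotype. Per2 changed by 0.01 (−0.25 to 0.27) and 0.12 (−0.16 to 0.39) on the log2 scale.

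The CRY proteins are the strongest repressors of the loop. Cry1 was at 20.4, 19.4, 17.7 and 17.8 CPM in WT mice, at 18.5, 20.8 and 22.5 in FUN025/+ mice and at 19.2, 25.7, 22.9, 17.6 and 16.6 in FUN025/FUN025 mice. Cry2 was at 80.7, 70.2, 74.1 and 65.3 CPM in WT mice, at 72.4, 79.0 and 85.4 in FUN025/+ mice and at 77.7, 84.8, 79.0, 76.9 and 72.7 in FUN025/FUN025 mice. The groups overlapped for both genes and neither was called. Log2 fold changes were 0.14 (−0.08 to 0.35) and 0.12 (−0.11 to 0.34) for Cry1. For Cry2 they were 0.12 (−0.01 to 0.24) and 0.11 (−0.02 to 0.24). The E-box CACGTG, bound by the ARNTL pair, lies in 7.15% of all promoter windows. Among the clock genes with a window, which leaves out Per2, it lies in those of Per1 (chr11:69098771-69098800, plus strand) and Cry1 (chr10:85185097-85185126, minus strand). They are printed because the activator pair binds this site, which is in capitals:
Per1: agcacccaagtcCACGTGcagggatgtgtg
Cry1: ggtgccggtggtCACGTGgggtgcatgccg

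Nr1d1 encodes REV-ERBα, the haem-binding nuclear receptor that represses Arntl. It was at 282, 276, 302 and 320 CPM in the WT mice. FUN025/+ mice ran from 243 through a median of 263 to 286 CPM, and FUN025/FUN025 mice were at 270, 251, 243, 280 and 251 CPM. The mutant mice were lower on average, but the highest of each mutant genotype lay above the lowest WT mouse. The log2 fold change was −0.16 ± 0.06 in FUN025/+ mice (adjusted p = 0.0702, edgeR's quasi-likelihood test) and −0.19 ± 0.06 in FUN025/FUN025 mice (adjusted p = 0.0419). This call was lost in 7 of the 15 fits that left out 1 mouse (WT replicates 3 and 4, FUN025/+ replicates 3 and 4 and FUN025/FUN025 replicates 2, 3 and 5), with adjusted p from 0.0511 to 0.145 in edgeR. It was also lost with the photoreceptor level (0.0506), the muscle level (0.0843) or the glucocorticoid level (0.0704) as a covariate. In GENCODE M21 263 exon bases of Nr1d1 (8.55%) are shared with the antisense gene Thra, and the strand setting of the counting is not given in the sources used here.

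Dbp, an output gene switched on by the activator pair, was the most abundant of the 10 clock genes in CPM and was not called. It was at 312, 264, 325 and 364 CPM in WT mice, at 316, 333 and 365 in FUN025/+ mice and at 339, 371, 358, 329 and 301 in FUN025/FUN025 mice. The WT mice held both the lowest value and one close to the highest. The log2 fold changes were 0.09 (−0.07 to 0.25) and 0.10 (−0.06 to 0.27). Dbp shares 539 exon bases (18%) with the antisense gene Sphk2, so reads of the pair cannot be told apart where they overlap.

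**Figure D2:**
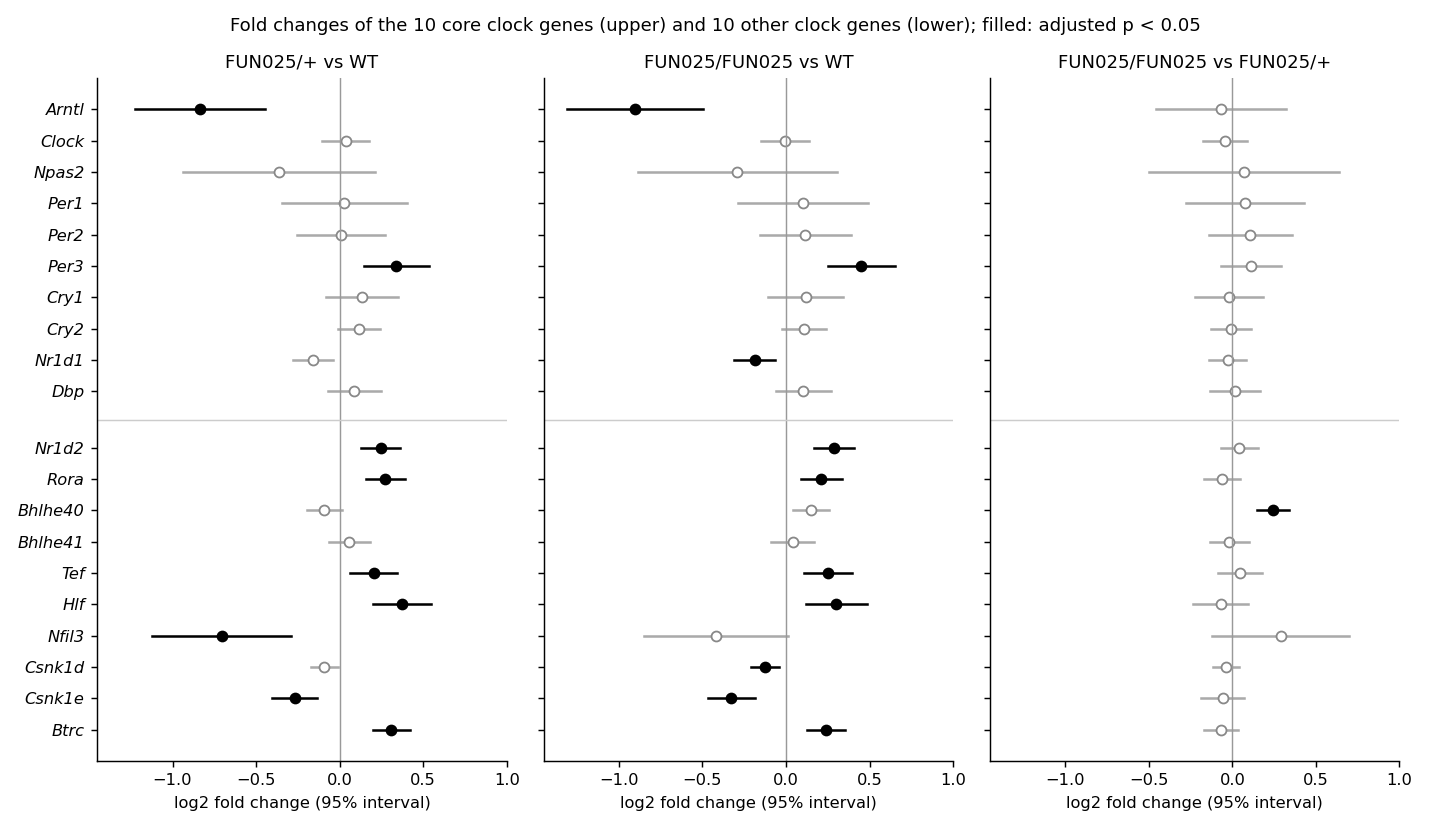
Log2 fold changes (x axis) with 95% intervals for the 10 clock genes (upper) and 10 further clock genes (lower) in the 3 comparisons; filled points passed an adjusted p of 0.05. Arntl lies at −0.84 and −0.90 and Per3 at 0.34 and 0.45 in the comparisons with WT, and only Bhlhe40, at 0.24, is filled between the mutant genotypes.

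Ordered per length, in CPM per kb of exons, the WT mice had Dbp at 106 ± 13.8 (SD, n = 4) and Nr1d1 at 95.9 ± 6.53, whose ranges overlapped, and then Per1 at 22.01 ± 3.40. Per2, Per3 and Cry2 followed at 12.7 ± 0.73, 12.6 ± 1.17 and 11.5 ± 1.03, with each overlapping the next in order. Clock at 5.92 ± 0.49 and Cry1 at 5.64 ± 0.38 also overlapped, and Arntl at 2.07 ± 0.45 and Npas2 at 0.60 ± 0.13 closed the order. Arntl and Npas2 were thus read below the other 8 genes, while the activator Clock stood beside the repressor Cry1. In both mutant genotypes Per3 stood above Per2, at 16.0 ± 1.74 against 12.7 ± 1.92 in FUN025/+ and 17.3 ± 2.17 against 13.7 ± 2.39 in FUN025/FUN025 mice, with overlapping values in the latter.

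Ratios of clock genes within a mouse do not depend on the scaling of its library. Per3 over Arntl was 5.35 to 9.71 in WT (median 8.66), 13.3 to 23.9 in FUN025/+ (17.4) and 12.2 to 38.9 in FUN025/FUN025 mice (20.6). Dbp over Arntl was 12.9 to 25.1 in WT (23.4), 27.9 to 50.1 in FUN025/+ (38.7) and 26.8 to 74.2 in FUN025/FUN025 mice (44.2). Both ratios separated the WT mice from all mutant mice, as Arntl itself did. Nr1d1 over its paralogue Nr1d2 was 1.04 to 1.32 in WT, 0.772 to 0.956 in FUN025/+ and 0.720 to 0.887 in FUN025/FUN025 mice, again without overlap. Nr1d1 over Dbp was 0.880 to 1.05 in WT mice and overlapped with FUN025/+ mice at 0.697 to 0.904. FUN025/FUN025 mice were at 0.677 to 0.851 for that ratio.

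**Figure D3:**
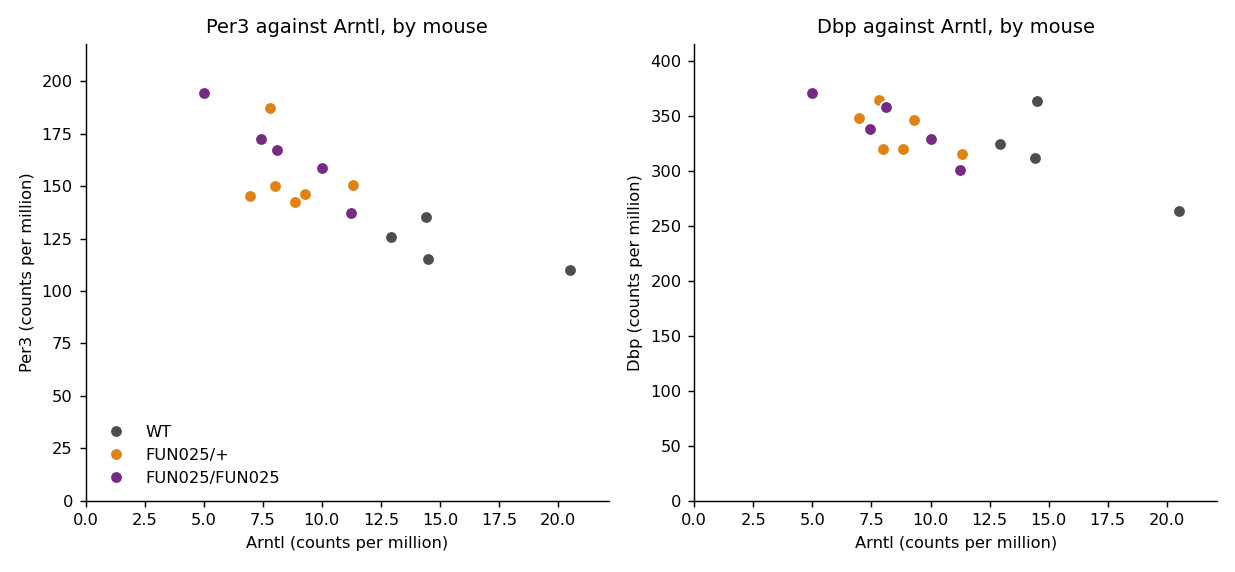
Per3 (left) and Dbp (right) against Arntl, all in CPM, for each of the 15 mice, coloured by genotype. The WT mice lie to the right at 12.9 to 20.5 CPM of Arntl, and the FUN025/FUN025 mice descend from 194 to 137 CPM of Per3 as Arntl goes from 5.004 to 11.3 CPM.

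Beyond these 10, 18 further clock genes were counted, all of which were tested. In FUN025/+ mice 7 of the 18 changed, 5 higher and 2 lower, and in FUN025/FUN025 mice 7 of the 18 did, again 5 higher and 2 lower, or 38.9% beside the 13.7% and 14.0% of all genes. Their median log2 fold change was 0.07 and 0.12. Without WT replicate 4 the count in FUN025/FUN025 mice was 3, as it was without FUN025/FUN025 replicate 2, and it was 4 without WT replicate 2 or FUN025/FUN025 replicate 3. With the level of the striated muscle markers as a covariate the count in FUN025/+ mice was 4. Calls over all genes fell in the same fits, in FUN025/FUN025 mice from 2666 to 1528 and 1959 without WT replicate 4 and FUN025/FUN025 replicate 2 and to 2100 and 2201 without WT replicate 2 and FUN025/FUN025 replicate 3, and in FUN025/+ mice from 2600 to 1480 with the muscle covariate.

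Nr1d2, which encodes REV-ERBβ, was at 271, 267, 271 and 243 CPM in WT, at 299, 312 and 331 (lowest, median, highest) in FUN025/+ and at 325, 349, 329, 317 and 283 in FUN025/FUN025 mice. It thus rose without overlap in both genotypes, by 0.24 (adjusted p = 0.00677, edgeR's quasi-likelihood test) and 0.29 (adjusted p = 0.00265). Its paralogue Nr1d1 was called lower in FUN025/FUN025 mice only, a call that depended on single mice, and was not called in FUN025/+ mice. Rora, an activator of Arntl, rose by 0.27 (adjusted p = 0.00314 in edgeR) and 0.21 (adjusted p = 0.0196). The relatives of Dbp rose as well. Hlf was at 130 to 152 CPM in WT, 161 to 210 in FUN025/+ and 152 to 199 in FUN025/FUN025 mice and rose by 0.37 (adjusted p = 0.00679 in edgeR) and 0.30 (adjusted p = 0.0267). Tef rose by 0.20 (adjusted p = 0.0494 in edgeR) and 0.25 (adjusted p = 0.0221). Their repressor Nfil3 was at 5.73 to 11.7 CPM in WT and 3.75 to 6.08 in FUN025/+ mice and fell there by 0.71 (adjusted p = 0.0248 in edgeR). In FUN025/FUN025 mice Nfil3 was at −0.42 (adjusted p = 0.189), and its FUN025/+ call was lost without WT replicate 2 (−0.49, adjusted p = 0.116 in edgeR), WT replicate 4 or FUN025/+ replicate 1 or 3. In FUN025/FUN025 mice the call of Hlf was lost without WT replicate 2 or 4 or FUN025/FUN025 replicate 2 or 3 (adjusted p up to 0.0957 in edgeR), that of Tef without the same 4 mice (up to 0.0731), and that of Rora without WT replicate 4 (0.0704) or FUN025/FUN025 replicate 2. Tef in FUN025/+ mice was called in only 5 of 15 such fits (adjusted p up to 0.145).

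The remaining calls were of genes that act on the stability of PER. Btrc, an adaptor of the ubiquitin ligase that marks PER for degradation, was at 44.7 to 54.6 CPM in WT, 59.9 to 65.1 in FUN025/+ and 56.0 to 62.0 in FUN025/FUN025 mice and rose by 0.31 (adjusted p = 8.03e-04 in edgeR) and 0.24 (adjusted p = 0.00678). Csnk1e, a kinase of PER, fell by 0.27 (adjusted p = 0.00901 in edgeR) and 0.33 (adjusted p = 0.00309). Its relative Csnk1d fell by 0.13 in FUN025/FUN025 mice (adjusted p = 0.0456 in edgeR) and was at −0.09 in FUN025/+ mice (adjusted p = 0.13), and the first was lost in 12 of 15 fits that left out 1 mouse (adjusted p up to 0.147). Of the abundant E-box repressors, Bhlhe41 was not called, at 0.06 and 0.04. Bhlhe40 was at 199, 183, 193 and 187 CPM in WT, 173, 177 and 187 in FUN025/+ and 201, 211, 212, 237 and 197 in FUN025/FUN025 mice. It was the only further clock gene called between the mutants, at 0.24 (adjusted p = 0.0161 in edgeR), where every FUN025/FUN025 mouse was above every FUN025/+ mouse. Without FUN025/+ replicate 2 the call was lost (0.23, adjusted p = 0.0514).

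Genes downstream of the clock were read from a list of 12 outputs, of which 2 rose in FUN025/+ and 4 in FUN025/FUN025 mice (edgeR), with none lower, where 7.09% and 7.03% of all genes rose. Counted in either direction, the 2 of 12 in FUN025/+ mice (16.7%) were near the 13.7% of all genes, and the 4 in FUN025/FUN025 mice were 33.3% beside 14.0%. Cirbp and Rbm3, RNA-binding proteins that respond to temperature, rose in both. Cirbp rose by 0.29 (adjusted p = 0.00202 in edgeR) and 0.28 (adjusted p = 0.00378), and Rbm3 by 0.29 (adjusted p = 0.012) and 0.29 (adjusted p = 0.0158). In FUN025/FUN025 mice Coq10b, a coenzyme Q binding protein of mitochondria, rose by 0.32 (adjusted p = 0.0324 in edgeR) and Lonrf3 by 0.58 (adjusted p = 0.0403), and these calls were lost in 5 and 7 of 15 fits that left out 1 mouse (adjusted p up to 0.0884 and 0.133). The abundant outputs Por and Tsc22d3 were not called, at −0.03 and −0.16 in FUN025/+ and −0.02 and −0.14 in FUN025/FUN025 mice.

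Glucocorticoids reset tissue clocks and switch on Per1, and light, handling and stress switch on immediate early genes, so both groups were counted beside the clock genes. Of 8 glucocorticoid targets 3 fell in each mutant genotype (edgeR), where 6.61% and 7.02% of all genes fell, and 7 of 8 had a negative sign in each. Klf9, a transcription factor, fell by 0.43 (adjusted p = 0.0163 in edgeR) and 0.49 (adjusted p = 0.0111). Pdk4, a kinase that restrains glucose oxidation, was at 37.1 to 47.6 CPM in WT, 17.3 to 30.6 in FUN025/+ and 26.0 to 30.5 in FUN025/FUN025 mice and fell by 0.90 (adjusted p = 3.24e-04 in edgeR) and 0.62 (adjusted p = 0.00664). Mt2, a metallothionein, fell by 0.54 (adjusted p = 1.28e-04 in edgeR) and 0.28 (adjusted p = 0.0232). Klf9 in FUN025/+ mice lost its call without WT replicate 2 or 4 (adjusted p = 0.0579 and 0.063 in edgeR), and Mt2 in FUN025/FUN025 mice without WT replicate 4 or FUN025/FUN025 replicate 1 or 5 (up to 0.0811). Fkbp5 was at 63.6 to 121 CPM in WT, 26.4 to 76.4 in FUN025/+ and 23.2 to 75.5 in FUN025/FUN025 mice, with log2 fold changes of −0.92 in both that were not called. Sgk1, the most abundant, was at 0.12 and 0.07. The list summed to 1551.58 to 1938.22 CPM in WT, 1287.72 to 1903.63 in FUN025/+ and 1347.47 to 1756.97 in FUN025/FUN025 mice. The mean log2 level of the list was 6.33 to 6.88 in WT mice and 5.62 to 6.34 in FUN025/+ mice. In FUN025/FUN025 mice it was 5.78 to 6.34, so this mean level went largely with genotype. It was used as a covariate, an alternative added after seeing the data. Arntl then stayed called in both comparisons and was the only one of the 10 called, with Per3 at 0.35 and 0.46. Calls over all 18979 genes fell with this covariate too, to 896 (FUN025/+, in place of 2600) and 1039 (FUN025/FUN025, in place of 2666).

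None of 12 immediate early genes was called by edgeR in either comparison with WT, with 0 and 1 at an unadjusted p under 0.05, and DESeq2 and limma-voom called none of the 4 most abundant, Jun, Junb, Egr1 and Dusp1. Jun was at −0.32 and −0.28, Dusp1 at −0.35 and −0.32, Junb at −0.15 and 0.15 and Egr1 at 0.06 and −0.02 on the log2 scale. The list summed to 249.548 to 341.216 CPM in WT, 187.245 to 388.063 in FUN025/+ and 220.728 to 421.34 in FUN025/FUN025 mice, so these sums overlapped between genotypes.

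Marker lists of other cell types were read beside the 6.61% and 7.02% of all genes that were called lower in FUN025/+ and FUN025/FUN025 mice. The neural retina was removed in dissection, and the 14 photoreceptor markers summed to 369 to 2625 CPM in WT, 194 to 825 in FUN025/+ and 197 to 548 in FUN025/FUN025 mice. All 14 had a negative sign in both comparisons, with medians of −1.77 and −1.80, and 0 and 1 of them were called by edgeR. In each comparison 10 were at an unadjusted p under 0.05 in edgeR, where 5473 and 5431 of all 18979 genes were. The 12 striated muscle markers summed to 4413 to 8275 CPM in WT, 2435 to 6251 in FUN025/+ and 3743 to 4590 in FUN025/FUN025 mice. All 12 had a negative sign in both comparisons, with medians of −0.63 and −0.52, and 3 and 2 were called lower. The values of 6 of the 12 did not overlap between FUN025/FUN025 and WT mice, beside 14.8% of all genes. The 8 endothelial markers summed to 1065 to 1246, 841 to 1167 and 774 to 962 CPM, with 2 and 5 called lower. No marker of these lists was at 0 in every library. Against WT, edgeR called no inner retina, melanocyte or fibroblast marker, with 3, 1 and 0 at an unadjusted p under 0.05 in FUN025/+ and 3, 1 and 2 in FUN025/FUN025 mice. Of the 7 inner retina markers 5 were tested, and 4 of these had a negative sign in each comparison, with medians of −0.53 and −0.72. The values of 2 of them did not overlap between FUN025/FUN025 and WT mice. Of 8 macrophage markers 1 was higher in FUN025/FUN025 mice. In bulk tissue, fewer cells of a type and less RNA per cell cannot be told apart. With the photoreceptor level as a covariate Arntl and Per3 stayed called in both comparisons, and with the muscle level Per3 in FUN025/+ mice was lost (0.32) while Arntl stayed called. The part of endothelium in these results was not tested.

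Whether mice of one genotype differ in phase was then asked from the way the clock genes vary between them, after the mean of each genotype was taken away. The SD of log2 CPM within genotypes was 0.48 for Npas2, 0.33 for Arntl, 0.28 for Per1, 0.21 for Per2, 0.17 for Cry1, 0.16 for Per3, 0.13 for Dbp, 0.11 for Clock, 0.09 for Cry2 and 0.09 for Nr1d1. Among genes within 1.5-fold of the same level, that of Per1 was at percentile 97.6, that of Per2 at 94.4, that of Per3 at 89.7 and that of Arntl at 89.5. Nr1d1 and Cry2 lay near the middle, at percentiles 51.3 and 58.2. Per1 and Per2 were thus among the more variable genes of their level, and Nr1d1 was not.

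**Figure D4:**
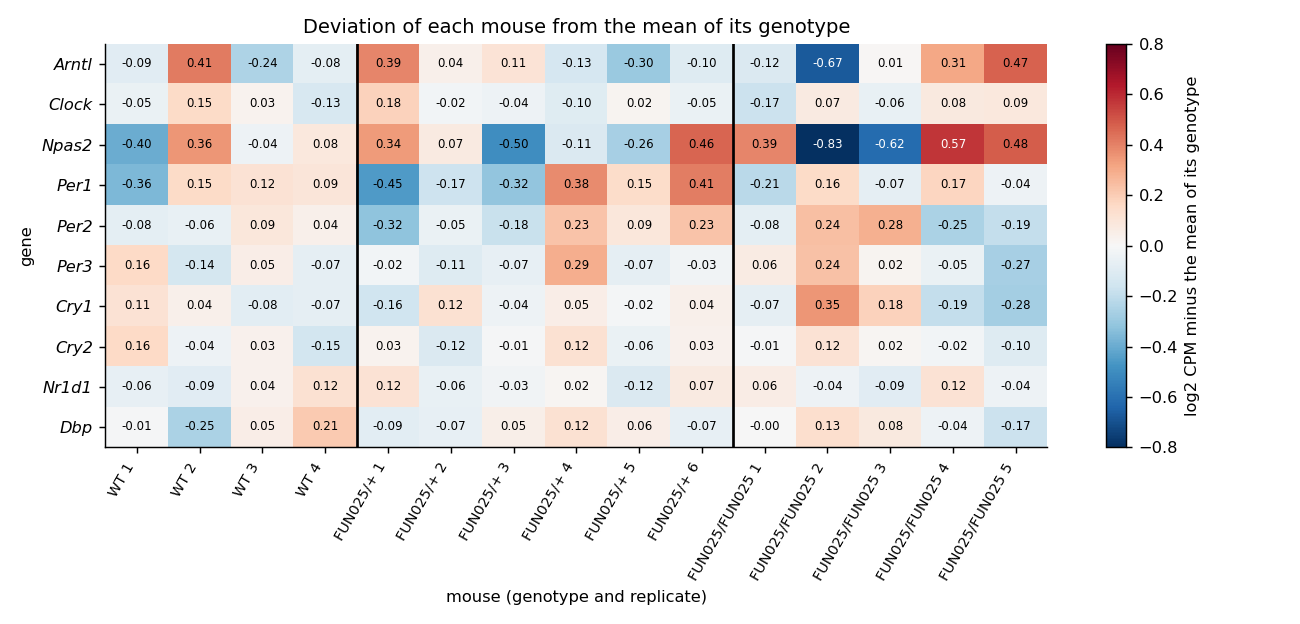
Difference of each mouse (x axis) from the mean of its genotype in log2 CPM for the 10 clock genes (rows), red above and blue below. FUN025/FUN025 replicate 2 is lowest in Arntl at −0.67 and highest in Cry1 at 0.35, and replicates 4 and 5 show the opposite signs in both genes.

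FUN025/FUN025 replicates 2 and 5 departed in opposite directions in 8 of the 10 genes, but not in Clock (0.07 and 0.09) or Nr1d1 (−0.04 and −0.04). Replicate 2 was below its genotype in Arntl by 0.67 and Npas2 by 0.83 on the log2 scale and above it in Cry1 (0.35), Per3 (0.24), Per2 (0.24) and Dbp (0.13). Replicate 5 was above it in Arntl (0.47) and Npas2 (0.48) and below it in Cry1 (−0.28), Per3 (−0.27), Per2 (−0.19) and Dbp (−0.17). Among WT mice replicate 2 was highest in Arntl (0.41) and lowest in Dbp (−0.25). Of the FUN025/+ mice replicate 1 was highest in Arntl (0.39) and lowest in Per1 (−0.45), Per2 (−0.32) and Dbp (−0.09). These mice were picked for their extreme values, so this is a description. Nr1d1 did not follow Dbp in FUN025/+ replicate 1, where it was above its genotype (0.12).

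Over the 45 pairs of clock genes, 1 correlation passed the adjustment in the main analysis. The count was 4 with genotype means kept, 5 with the photoreceptor level also removed and 0 to 4 when 1 mouse was left out. Per3 and Cry2 rose and fell together over the 15 mice, with Pearson's r of 0.84 (p = 2.5e-04, adjusted p = 0.0113, permutation test within genotypes, two-sided, 100000 permutations) and Spearman's rho of 0.88 (adjusted p = 0.0045, permutation). Within genotypes r was 0.85 in WT, 0.85 in FUN025/+ and 0.97 in FUN025/FUN025 mice. Without the 2 mice farthest from the median of Per3, r was 0.77 and no longer passed (adjusted p = 0.16, permutation). The correlation also missed the threshold without WT replicate 1 (r = 0.84, adjusted p = 0.0522, permutation) or FUN025/+ replicate 4 (r = 0.82, adjusted p = 0.0698, permutation). The adjusted p thus depended on these mice, while r stayed at 0.77 or above in each of these runs.

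Arntl was negatively related to Dbp and to the 5 Per and Cry genes, but none of these correlations passed over the 45 pairs in the main analysis. With Per1 r was only −0.30 (adjusted p = 0.378, permutation), and within WT mice the sign turned for Per1 (0.28) and Cry1 (0.41), as it did within FUN025/+ mice for Cry2 (0.014). With Dbp r was −0.72 and rho −0.72 (p = 0.00411 and 0.00731, adjusted p = 0.0801 and 0.164, permutation). The sign held within WT (−0.80), FUN025/+ (−0.56) and FUN025/FUN025 mice (−0.88), and r was −0.66 without the 2 mice farthest from the median. With Per2 r was −0.72 and rho −0.68 (adjusted p = 0.0801 and 0.177, permutation), with r within genotypes of −0.62, −0.86 and −0.72 and of −0.65 without the 2 farthest mice. With Per3 r was −0.68 and rho −0.63 (adjusted p = 0.133 and 0.177, permutation), at −0.70 in WT, −0.20 in FUN025/+ and −0.95 in FUN025/FUN025 mice. Without the 2 farthest mice r fell in size to −0.44 for Per3, and to −0.26 from −0.67 for Cry1 and −0.14 from −0.43 for Cry2. With Nr1d1, its own repressor, r was 0.14 and rho 0.04 (adjusted p = 0.765 and 0.909, permutation).

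**Figure D5:**
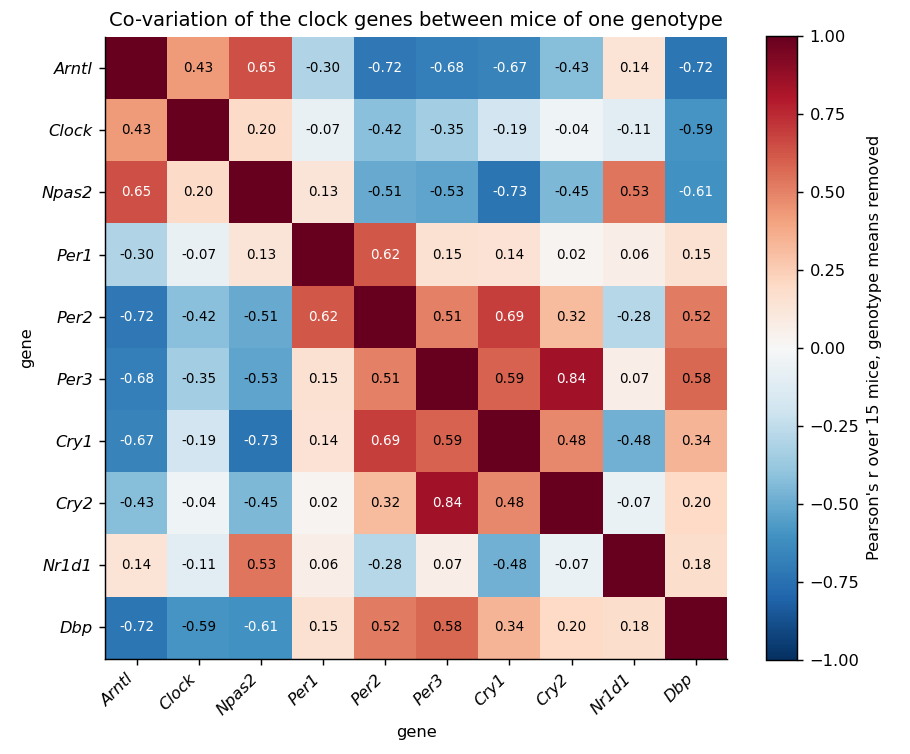
Pearson's r over 15 mice for every pair of the 10 clock genes after the mean of each genotype was taken away, red positive and blue negative. Per3 and Cry2 show the highest value at 0.84, and the Arntl row is negative for Per2, Per3, Cry1 and Dbp.

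Placed among all 17586 genes with a mean of at least 1 CPM, 4 of the 27 other clock genes stood within the first 28 places of the likeness to Per3 over the 15 mice. Tef stood at place 7 (r = 0.86), Cry2 at 10, Hlf at 26 (r = 0.79) and Nr1d2 at 28 (r = 0.78). Others stood far from the top, such as Bhlhe40 at 3867, Per1 at 5575 and Nr1d1 at 7282. The nearest clock gene to Nr1d1 was Csnk1e at place 758 and the nearest to Clock was Arntl at 1299. For Per2 the clock gene Ciart stood at place 9 (r = 0.83). Dbp stood at place 54 from the low end of the likeness to Arntl, Per2 at 58 and Tef at 28 (r = −0.75). These are descriptions of genes that share the same 15 libraries and their depth, and no test was made of them.

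The 5 genes most like Arntl over the 15 mice were Tro (r = 0.87), Gm43858 (0.85), 3110001I22Rik (0.83), Ubash3b (0.82) and 4930516B21Rik (0.82). Those least like it were Fam76a (r = −0.92), Mthfd1l (−0.86), Gm26771 (−0.85), Psmg2 (−0.84) and Sfrp2 (−0.82). For Dbp the highest were Lgals1 (r = 0.91), Sphk2 (0.90), Fam76a (0.86), Rasip1 (0.86) and Ehbp1l1 (0.84), and the lowest Tada1 (r = −0.88), Gm26852 (−0.85), Lcor (−0.84), Klhl3 (−0.83) and Rbm45 (−0.81). Fam76a stood at the low end for Arntl and the high end for Dbp. Sphk2 is the antisense gene that overlaps Dbp, and reads of the shared exons cannot be told apart.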

How the data were processed

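The authors deposited, for each of 15 mouse eyecup libraries, whole-number read counts per Ensembl gene without normalization. The submitters' processing notes name FastQC 0.11.8, Trimmomatic 0.39, HISAT2 2.1.0, SAMtools, featureCounts 2.0.0 and GRCm38, and the strand setting and annotation release are not given in the sources used here. Symbols and exon lengths were taken from GENCODE M21, which holds 55240 of 55421 listed genes.

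Libraries were grouped by the genotype in their titles. Following the study's methods, the 15% least variable genes were dropped, and edgeR's filterByExpr left 18979 genes. Counts were scaled by TMM (factors 0.976 to 1.02), and all 15 mice entered 1 quasi-likelihood fit (edgeR 4.0.16) with Benjamini-Hochberg adjustment and a threshold of 0.05. No libraries held identical values, and same-genotype libraries differed beyond sampling noise (chi-square per gene 3.23 to 18.9). A level of 3 counts corresponded to 0.15 to 0.275 CPM, which covers counting error only. Correlations were computed on log2 CPM (prior count 2). The scripts were tested on simulated data.

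Named genes were the 10 clock genes, Tmem135, the genes of 4 further lists called in any comparison with up to 4 of the most abundant of each list, and the 5 genes most and least like Arntl and Dbp. The members and lists were chosen with earlier results of these data known. Alternatives were RLE scaling, DESeq2 1.42.0, limma-voom (limma 3.58.1), other filters, a replicate block, covariates (the photoreceptor or striated muscle marker level, or Xist), fits of only the genotypes compared and leaving out each mouse, and for correlations another prior count, genotype means kept and the photoreceptor level removed. The glucocorticoid covariate was added after seeing the data. Promoter windows came from RefSeq on GRCm38.p6 and were searched for CACGTG, TTATGTAA, TTACGTAA and TAGGTCA on both strands. R 4.3.3 and Python 3.11.15 were used.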

Additional observations from a re-analysis of the deposited data

Results flagged for a closer look

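Among the 20 clock genes named, the mice of each genotype were checked for 1 mouse far from the others, by comparing its gap to the nearest mouse with the whole range of the group. This found 3 mice in 60 groups, and chance flags about 1 in 20 groups. Per1 in WT replicate 1 was lowest of 4 at 95.4 CPM, with a gap of 0.873 of the range. Per3 in FUN025/+ replicate 4 was highest of 6 at 187 CPM (0.813 of the range). Nr1d2 in WT replicate 4 was lowest of 4 at 243 CPM (0.849 of the range). Bhlhe40 differed between the mutant genotypes by a log2 fold change of 0.24 (adjusted p = 0.0161, edgeR's quasi-likelihood test), higher in 5 of 5 FUN025/FUN025 mice than in any FUN025/+ mouse.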

How the results depend on the processing

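Of the 10 clock genes, the number called in FUN025/+ mice was 1, in place of 2, with no filter, with the replicate block and with the striated muscle or the glucocorticoid covariate, and 1 to 3 when 1 mouse was left out (1 without WT replicate 2 or 4). In FUN025/FUN025 mice it was 1, in place of 3, with the glucocorticoid covariate. Calls over all genes fell as well, to 1480 (muscle) and 896 (glucocorticoid) from 2600 in FUN025/+ and to 1039 (glucocorticoid) from 2666 in FUN025/FUN025 mice. Of the other clock genes, 4 in place of 7 were called in FUN025/+ mice with the striated muscle or the glucocorticoid covariate. In FUN025/FUN025 mice 4 were called with the replicate block, and 3 to 8 when 1 mouse was left out. Between the mutants 0 to 1 were called when 1 mouse was left out.

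Replicate numbers were shared between genotypes, but same-numbered mice are different animals. Their deviations from the genotype means correlated at −0.38 to 0.13 over 13 pairs (mean −0.076), 1 pair was above 0.1, and 0 of 15 mice correlated best with its own number, so the numbers do not pair the mice. With the replicate block 2010 genes were called in FUN025/+ and 2137 in FUN025/FUN025 mice, against 2600 and 2666. Under the block Arntl in FUN025/+ mice was at −0.83 (adjusted p = 0.0576, edgeR).

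Correlations that passed numbered 4 with genotype means kept, 5 with the photoreceptor level also removed, 0 without the 2 mice farthest from the median and 0 to 4 when 1 mouse was left out (0 without WT replicate 1 or FUN025/+ replicate 4, 4 without WT replicate 4, 2 without FUN025/FUN025 replicate 3). In the main analysis 1 did.

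Signs turned only for log2 fold changes that were not called. In FUN025/+ mice Clock was −0.041 with the muscle covariate (−0.0052 to 0.095 leaving out 1 mouse), Per1 −0.098 with the block and −0.0017 with the photoreceptor covariate (−0.079 to 0.11), and Per2 −0.0077 with limma-voom and −0.033 with the block (−0.040 to 0.069). In FUN025/FUN025 mice Clock was 0.061 with the photoreceptor and 0.082 with the glucocorticoid covariate (−0.047 to 0.056), and Per1 was −0.0024 to 0.16 leaving out 1 mouse. Between the mutants Arntl was −0.19 to 0.071.

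Among the other genes, Bhlhe41 was −0.0022 and −0.032 in FUN025/+ and −0.0072 and −0.051 in FUN025/FUN025 mice with the muscle and the glucocorticoid covariate. With the same covariates Tsc22d3 was 0.043 and 0.44 in FUN025/+ and 0.035 and 0.49 in FUN025/FUN025 mice. Fkbp5 was 0.22 and 0.24 with the glucocorticoid covariate, of which it is a part. Egr1 in FUN025/+ mice was −0.13 with the photoreceptor and −0.43 with the glucocorticoid covariate (−0.15 to 0.36 leaving out 1 mouse), and in FUN025/FUN025 mice 0.076 with limma-voom, 0.18 with the block and 0.015 with Xist as a covariate (−0.23 to 0.28). Junb in FUN025/FUN025 mice was −0.074 with the photoreceptor and −0.089 with the glucocorticoid covariate (−0.028 to 0.28). Por was −0.079 to 0.032 in FUN025/+ and −0.070 to 0.043 in FUN025/FUN025 mice leaving out 1 mouse. The cause of these differences was not tested. Npas2 and Arntl had the fewest counts of the 10 genes.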
